A study of Mus musculus with 4 samples.

Results

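Transcript levels of 9 myeloid C-type lectin genes were examined in the epididymal adipose tissue of obese male C57BL/6J mice, a visceral fat depot. The lectins are Clec4e (Mincle), Clec4d (MCL), Clec4n (Dectin-2), Clec7a (Dectin-1), Clec5a (MDL-1), Clec4a1, Clec4a2, Clec4a3 and Clec12a (MICL). They were 9 of 24421 gene symbols measured, picked by symbol because Clec4d, Clec4e and Clec4n had fallen sharply in the comparison described here. Their differences between the groups are therefore given as a description, with no p-value printed for any of them. Counts of those under a p threshold are given below, and nothing is read from them. All mice were wild type. Weight-cycled (WC1) mice were put on a high-fat diet (HFD) at 8 weeks of age, were switched after 8 weeks to a standard diet for 2 weeks, and returned to HFD for the last 6 weeks. Control (Ctrl) mice went on HFD at 10 weeks of age and remained on it for 14 weeks. Both groups thus received 14 weeks of HFD in all, up to an age of 24 weeks. Each group had 2 RNA-seq libraries, and the labels do not say whether a library came from a single mouse or from pooled tissue.

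C-type lectin receptors of this kind sit on macrophages, monocytes, dendritic cells and neutrophils and bind microbial sugars and lipids as well as molecules released from dying cells. Mincle, MCL and Dectin-2 have almost no signalling tail of their own and pair with the Fc receptor gamma chain (Fcer1g), whose tyrosines recruit the kinase Syk and, through Card9, Bcl10 and Malt1, turn on NF-kB. Dectin-1 recruits Syk by its own tail, MDL-1 by the adaptor DAP12 (Tyrobp), and DCIR1 (Clec4a2) and MICL are inhibitory receptors that recruit phosphatases such as Ptpn6. In obese fat, Mincle is known from macrophages of crown-like structures, the rings of macrophages around dead adipocytes.

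The libraries held between 61465029 and 90965297 reads, so 3 reads corresponded to at most 0.0492 CPM. Every lectin lay above this in every library, and the smallest number of reads for any of them was 36, for Clec4e in WC1 2. Marker genes matched the labelled tissue: the summed level of 5 adipocyte genes was 4189 and 5125 CPM in the Ctrl libraries versus 8544 and 11599 CPM in the WC1 libraries. Of 4 epididymis genes, 3 were at 0 in all libraries, and the remaining one, Adam7, was at 3.02 CPM in WC1 1 and at 0.0318 CPM in WC1 2. The summed level of 15 macrophage genes was 13167 and 12100 CPM in the Ctrl libraries versus 7900 and 5628 CPM in the WC1 libraries, lowest in WC1 2. The summed level of 4 B cell genes was 26.4 CPM in WC1 2 and between 2.59 and 7.24 CPM in the other libraries. In bulk tissue, fewer cells of a type and less RNA per cell cannot be told apart. Across all 14106 genes tested, limma called 17.9% at an adjusted p under 0.05, 7.71% lower and 10.2% higher in WC1.

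Mincle, MCL and Dectin-2 were the lectins with the largest falls, and their Ctrl and WC1 libraries stood far apart. Clec4e, the gene of Mincle, was at 3.90 and 4.33 CPM in the Ctrl libraries versus 0.869 and 0.572 CPM in the WC1 libraries. Both WC1 values lay well below both Ctrl values, with a WC1 mean at 17.5% of the Ctrl mean. On the log2(CPM + 1) scale, which understates changes of genes at such low levels, the difference was -1.58 ± 0.14 (SE, n = 2 per group), and on recovered reads it was -2.50 in edgeR. Clec4d encodes MCL, a partner that brings Mincle to the cell surface. It was at 282 and 213 CPM in the Ctrl libraries versus 17.9 and 10.5 CPM in the WC1 libraries. The WC1 mean was 5.72% of the Ctrl mean, a log2 difference of -4.07 ± 0.27. Clec4n, which encodes the mannan receptor Dectin-2, was at 22.0 and 19.2 CPM in the Ctrl libraries versus 1.02 and 1.43 CPM in the WC1 libraries. Its WC1 mean was 5.93% of the Ctrl mean, a log2 difference of -3.28 ± 0.14, which the same scale understates. On recovered reads in edgeR the log2 difference of Clec4n was -4.05 and that of Clec4d was -4.11. Of the 14106 genes tested, 3 had a larger fall on the log2(CPM + 1) scale than Clec4d, 5 than Clec4n and 76 than Clec4e. On recovered reads in edgeR these numbers were 7, 10 and 50.

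The remaining activating receptors moved less. Clec7a, which encodes the beta-glucan receptor Dectin-1, was at 208 and 173 CPM in the Ctrl libraries versus 133 and 94.5 CPM in the WC1 libraries. The groups did not overlap, and the log2 difference was -0.75 ± 0.19, or -0.51 without WC1 2. Clec5a, which encodes the DAP12-coupled receptor MDL-1, was at 3.16 and 7.80 CPM in the Ctrl libraries versus 3.87 and 2.86 CPM in the WC1 libraries. Its groups overlapped, since the Ctrl libraries differed from each other more than either differed from WC1 1. The log2 difference of Clec5a was -0.48 ± 0.37 with all libraries and 0.06 without Ctrl 2.

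The DCIR genes differed by about as much as Clec7a or less. Clec4a2, which encodes the inhibitory receptor DCIR1, was at 94.3 and 82.1 CPM in the Ctrl libraries versus 65.4 and 46.1 CPM in the WC1 libraries (log2 difference -0.67 ± 0.18). Clec4a1 was at 48.4 and 51.7 CPM in the Ctrl libraries versus 33.4 and 29.8 CPM in the WC1 libraries (-0.65 ± 0.09). Clec4a3 was at 68.7 and 71.6 CPM in the Ctrl libraries versus 54.0 and 48.0 CPM in the WC1 libraries (-0.45 ± 0.08). In all 3 genes both WC1 libraries were below both Ctrl libraries, and the WC1 mean was between 63.1% and 72.7% of the Ctrl mean. Clec12a, which encodes the inhibitory receptor MICL, was at 216 and 199.6 CPM in the Ctrl libraries versus 199.6 and 126 CPM in the WC1 libraries. WC1 1 thus sat at the level of Ctrl 2, and the log2 difference of -0.39 ± 0.22 came to -0.06 without WC1 2.

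**Figure D1:**
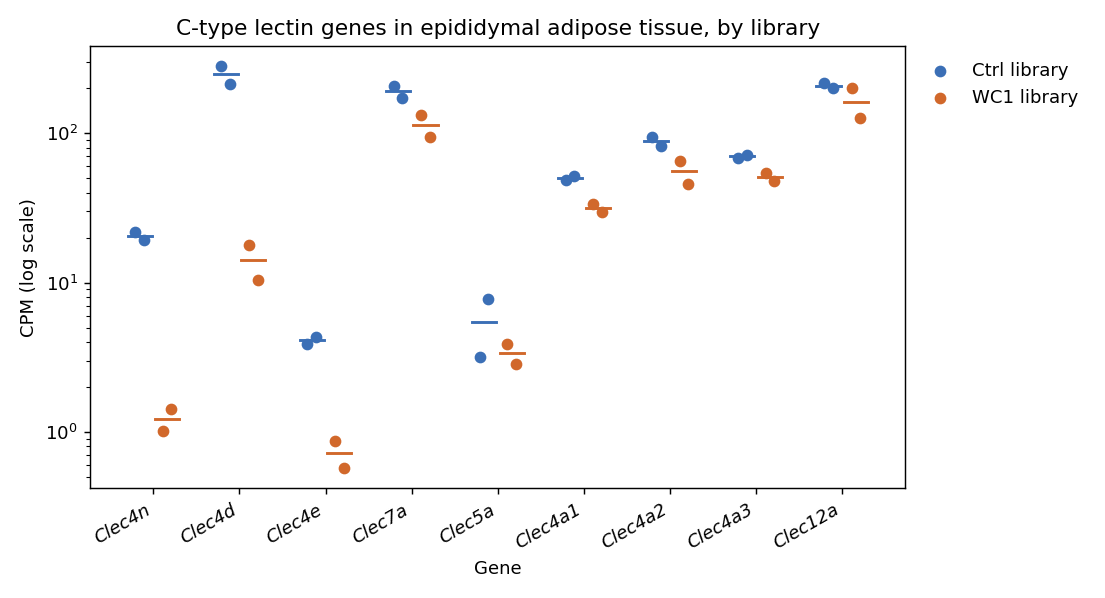
CPM on a log axis for each of the 9 lectin genes in the 2 Ctrl and 2 WC1 libraries, with a bar at each group mean. Clec4n, Clec4d and Clec4e are separated by a wide gap between the groups, whereas the libraries of Clec5a overlap and those of Clec12a touch at 199.6 CPM.

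All 9 lectins passed the filter on low values, and the median of their log2 differences was -0.67, compared to -0.02 over all genes tested. Both WC1 libraries were below both Ctrl libraries in 8 of the 9, as they were in 36.6% of all genes. The 8 include Clec12a, whose nearest libraries were at the same printed CPM and overlapped in TPM, where the count was 7 of 9. In limma, 5 of the 9 were called lower (Clec4d, Clec4n, Clec4e, Clec4a1 and Clec4a3), against 7.71% of all genes, a count from which nothing is read because the genes were picked on this contrast. On reads recovered from the matrix, edgeR called 5 of the 9 and 17.6% of all genes in either direction. DESeq2 called 7 of the 9 and 27.4% of all genes. Without Ctrl 1 or without Ctrl 2 limma called 0 of the 9, with 6 and 7 of them at an unadjusted p under 0.05, and 6 and 12 genes called in all. Without WC1 1 or without WC1 2 it called more of the 9, and more of all genes too.

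Levels of different lectins were compared per length, in TPM. In Ctrl, Clec4d was the most abundant lectin with 404 and 308 TPM, above Clec12a with 186 and 173 TPM and Clec7a with 184 and 155 TPM, which did not differ from each other beyond their spread. Clec4a3 (103 ± 3.7 TPM, SD, n = 2), Clec4a2 (68.2 ± 6.0), Clec4a1 (61.7 ± 3.2) and Clec4n (32.7 ± 3.0) followed in that order, where Clec4a2 and Clec4a1 met at 64.0 TPM and the others did not overlap. Clec4e stood at 2.96 and 3.31 TPM, within the range of Clec5a (1.59 and 4.0 TPM), the lowest of the 9. In WC1, Clec4d was down in the sixth place at 27.9 and 16.8 TPM, and Clec12a led with 187 and 122 TPM, overlapping with Clec7a (128 and 93.9 TPM). Clec4a2 and Clec4a1 overlapped there, as did Clec4n and Clec5a, and Clec4e was the lowest at 0.705 and 0.485 TPM. Clec12a overlapped between the groups on this scale.

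Clec4d thus made up much of the lectin transcripts in control mice and little of them after weight cycling. Its share of the summed TPM of the 9 genes was 38.6% and 33.9% in the Ctrl libraries versus 5.22% and 4.23% in the WC1 libraries. The sum of the other 8 was 642 and 601 TPM in the Ctrl libraries versus 506 and 381 TPM in the WC1 libraries. The ratio of Clec4d to Clec4e, partners at the protein level, was 136 and 93.0 in the Ctrl libraries versus 39.5 and 34.7 in the WC1 libraries, so the genes did not fall by the same factor. The ratio of Clec4d to Clec4n was 11.6 and 10.1 in the Ctrl libraries versus 15.9 and 6.60 in the WC1 libraries, with overlap between the groups.

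Since macrophage genes were lower in WC1 as well, each lectin was also set against the mean log2(CPM + 1) of the 15 macrophage genes of the same library. That mean was 8.07 and 7.96 in the Ctrl libraries versus 7.55 and 7.15 in the WC1 libraries, a difference of -0.67. Relative to it, the log2 difference was -3.40 for Clec4d, -2.62 for Clec4n and -0.91 for Clec4e, and their groups did not overlap. Clec7a (-0.09), Clec4a1 (0.02), Clec4a2 (-0.00424) and Clec5a (0.18) overlapped between the groups. Clec4a3 (0.21) and Clec12a (0.28) had higher values in both WC1 libraries than in both Ctrl libraries by this measure. Clec4d, Clec4n and Clec4e, which were picked for their falls, thus lay below the macrophage genes in WC1. The other 6 lectins stayed within 0.28 of the macrophage genes on either side. Nothing is read from this split, since the choice used the same values. The pseudocount of 1 shrinks the values of the scarce transcripts: on recovered reads in edgeR, relative to the same macrophage genes, Clec4d was at -3.47, Clec4n at -3.41 and Clec4e at -1.86. There the other 6 ran from -0.09 (Clec7a) to 0.30 (Clec12a), with Clec5a at -0.05. Against 10 genes of crown-like structure macrophages, whose mean differed by -1.08, Clec4d (-2.99), Clec4n (-2.21) and Clec4e (-0.50) were lower in WC1 without overlap. By that reference Clec7a (0.32), Clec4a2 (0.41), Clec4a1 (0.43), Clec4a3 (0.62) and Clec12a (0.69) were higher in WC1 without overlap, and Clec5a (0.59) overlapped. The 10 reference genes themselves differed widely, from -2.70 (Spp1) and -2.17 (Mmp12) to 0.04 (Fabp5). Clec4e, at -1.58 before being set against them, lay within that range.

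**Figure D2:**
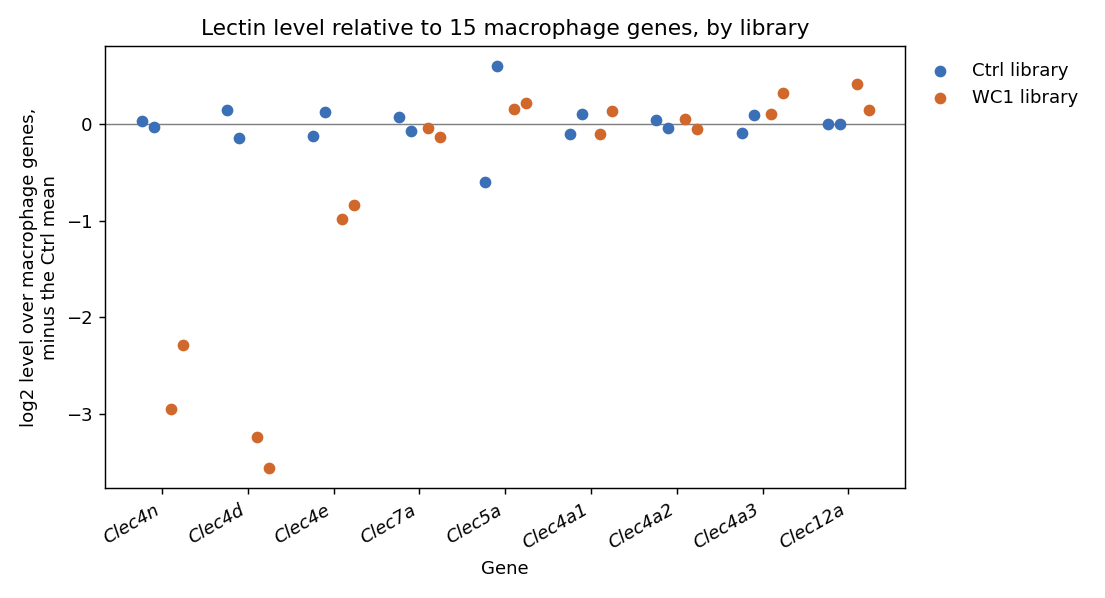
log2(CPM + 1) of each lectin minus the mean of 15 macrophage genes of the same library, with the Ctrl mean of each gene set to 0. Each point is a library, and the WC1 points of Clec4d, Clec4n and Clec4e lie at a mean of -3.40, -2.62 and -0.91, while those of the other 6 lie near 0.

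The lectins are all on mouse chromosome 6. Position was not used directly to choose them, but they were picked by symbol, and the genes of the cluster below share the symbol stem Clec4. In GENCODE M21 (GRCm38, the build named mm10 in the submitters' processing notes), 6 of them lie in a cluster of 9 protein-coding genes over 368 kb, chr6:122921848-123289870. From one end to the other the cluster reads Clec4a1, Clec4a3, Clec4a4, Clec4b1, Clec4a2, Clec4b2, Clec4n, Clec4d and Clec4e. The genes with the largest falls, Clec4n (chr6:123229843-123247021), Clec4d (chr6:123262111-123275265) and Clec4e (chr6:123281789-123289870), are therefore consecutive protein-coding genes at its distal end, within 60.0 kb. Clec4n and Clec4d are on the plus strand and Clec4e is on the minus strand, with its 3′ end facing that of Clec4d across 6.52 kb. Each has 6 exons in its longest coding transcript.

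The other genes of the cluster behaved differently. Clec4a1, Clec4a3 and Clec4a2 had the smaller differences given above. Clec4b1, which the choice of genes did not include, was at 12.2 and 13.1 CPM in the Ctrl libraries versus 20.3 and 15.2 CPM in the WC1 libraries, higher in both WC1 libraries but not called (log2 difference 0.45 ± 0.15, limma adjusted p = 0.10). Clec4a4 was at 0.775 and 0.69 CPM in the Ctrl libraries versus 0.59 and 0.381 CPM in the WC1 libraries and was not called (limma adjusted p = 0.30), and Clec4b2 was at 0 in all libraries. Beyond the cluster, C3ar1, the receptor of the complement fragment C3a, had a log2 difference of -0.71 ± 0.20 (limma adjusted p = 0.065) and Necap1 one of -0.12 ± 0.08 (limma adjusted p = 0.31). On the other side lie vomeronasal receptor genes, of which the nearest 3 were at 0. Clec12a and Clec7a lie 6.05 and 6.18 Mb away from Clec4e. Clec5a lies much farther away, in the opposite direction (chr6:40574894-40585821).

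**Figure D3:**
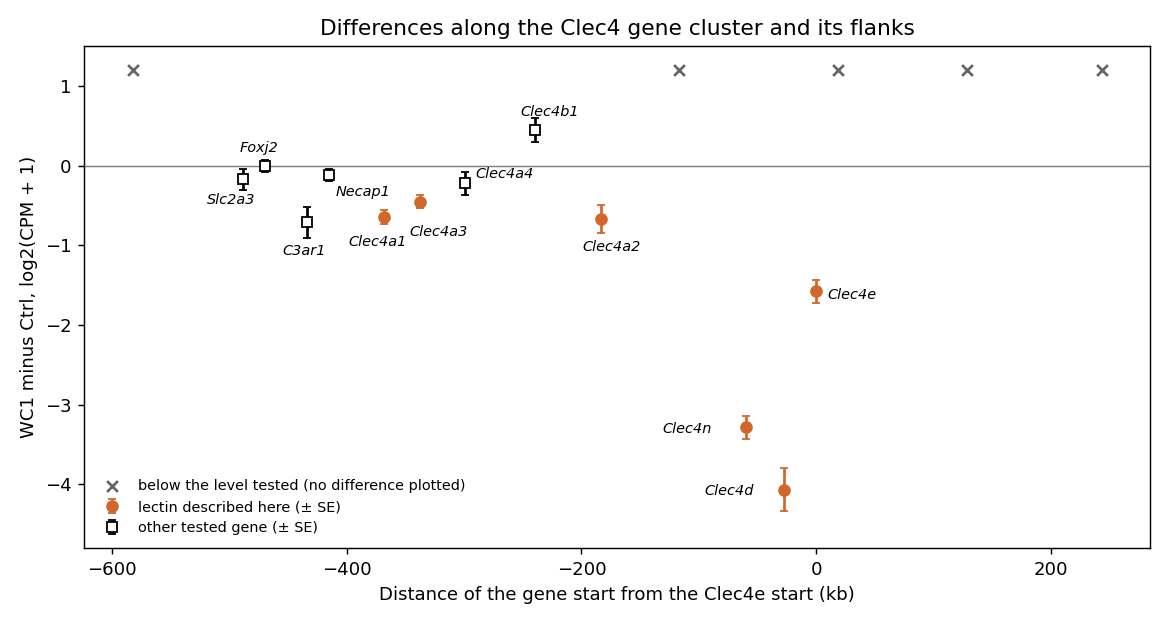
Difference between WC1 and Ctrl in log2(CPM + 1), with SE, against the distance in kb of each gene's start from that of Clec4e, for protein-coding genes in and around the Clec4 cluster. Clec4n, Clec4d and Clec4e, next to each other at 0 to -60.0 kb, lie between -1.58 and -4.07, the remaining tested genes lie between -0.71 and 0.45, and crosses mark genes too low to test.

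The 250 bases upstream of the RefSeq start sites (GRCm38.p6) are shown for Clec4e and Clec4d, and for Clec4a1 as a gene of the same cluster with a smaller difference. Clec4e, Clec4d and Clec4n were picked for their falls, so nothing is read from their falling together. No entry was available here for Clec4n. Capitals mark matches, on either strand, to the letters of 5 binding motifs: PU.1 (GAGGAA), C/EBP (TTGCNNAA), AP-1 (TGANTCA), the hypoxia response element (ACGTG) and NF-kB.
Clec4e, minus strand, chr6:123289872-123290121: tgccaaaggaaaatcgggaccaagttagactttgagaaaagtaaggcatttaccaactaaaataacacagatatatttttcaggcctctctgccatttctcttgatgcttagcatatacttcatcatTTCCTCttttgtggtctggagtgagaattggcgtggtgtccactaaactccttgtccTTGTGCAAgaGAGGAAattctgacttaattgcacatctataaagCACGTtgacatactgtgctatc
Clec4d, plus strand, chr6:123261857-123262106: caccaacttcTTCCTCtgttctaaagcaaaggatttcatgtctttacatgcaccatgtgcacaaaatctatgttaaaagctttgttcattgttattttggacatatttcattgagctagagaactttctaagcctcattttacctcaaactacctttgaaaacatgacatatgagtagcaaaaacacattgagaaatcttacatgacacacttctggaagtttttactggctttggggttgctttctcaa
Clec4a1, plus strand, chr6:122921598-122921847: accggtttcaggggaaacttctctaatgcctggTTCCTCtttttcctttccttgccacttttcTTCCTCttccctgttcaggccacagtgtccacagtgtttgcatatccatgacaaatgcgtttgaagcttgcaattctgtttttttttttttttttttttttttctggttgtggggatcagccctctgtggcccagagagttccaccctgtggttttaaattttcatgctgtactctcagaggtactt

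Clec4e held the PU.1 letters at 123 and at 56 bases before its start and the C/EBP letters between those matches, at 66 bases. PU.1 is a factor needed for myeloid cells and C/EBP proteins act in inflammatory macrophages. Clec4d held only the PU.1 letters, 240 bases before its start, and Clec4a1 held them at 217 and 187 bases. The PU.1 letters were found upstream of 7 of the 8 lectins with an entry, Clec4a2 being the exception, and in 23.3% of 32851 windows of that length over all RefSeq starts. C/EBP letters were found in Clec4e and Clec12a (9.56% of all windows), AP-1 letters in Clec12a (6.75%), the hypoxia letters in Clec4e (16.6%) and NF-kB letters in none (7.25% of all windows). Marked matches did not overlap. Genes with more than 1 start, Clec7a and Clec4a3, had more than 1 window. A lectin was counted if any of its windows matched, whereas the shares over all RefSeq starts are per window. The more upstream window of Clec4a3 held no match. Such matches describe letters and not sites of binding.

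Related genes can share reads, and the sources used here do not give how shared reads were assigned. Of the 50-base stretches in the annotated coding transcripts of each lectin, those of Clec4e, Clec4d, Clec7a, Clec5a, Clec4a1, Clec4a3 and Clec12a occurred in no transcript of another gene. In Clec4n, 0.826% were shared with 1 pseudogene. In Clec4a2, 6.69% were shared with other genes.

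The genes whose levels lay nearest to each strongly falling lectin over the 4 libraries were listed by Euclidean distance of their centred log2(CPM + 1) values, among 13258 candidates. These lists rested on the pseudocount, which shrinks Clec4e and Clec4n but not more abundant genes. With no pseudocount, an alternative chosen after seeing the data, 2 of the 5 nearest genes were shared for Clec4d and 0 of 5 for Clec4e and for Clec4n. For Clec4d, Serpinb9b was nearest on both scales (distance 0.34 and 0.35) and B430306N03Rik was also on both. A530064D06Rik, Cd5l and the mast cell carboxypeptidase gene Cpa3 were listed with the pseudocount only, and Tph1, Fcer1a and Eef1a2 without it only. Serpinb9b was at 326 and 281 CPM in the Ctrl libraries versus 25.3 and 10.8 CPM in the WC1 libraries. For Clec4e the nearest were Tnfrsf26, Ifi205, Sgms1, Sumo3 and Alox5ap with the pseudocount (distances 0.10 to 0.15) and Ccl3, Nxpe5, Uchl1, Serpinb1b and Prdx1 without it (0.31 to 0.36). Alox5ap, at 219 and 208 CPM in the Ctrl libraries versus 74.3 and 66.9 CPM in the WC1 libraries, had a smaller fold difference than Clec4e. For Clec4n the nearest were Mcpt4, Tpsb2, Akr1b8, B430306N03Rik and Cpa3 with the pseudocount (0.58 to 0.66) and Tph1, Cd5l, Fcer1a, Slc7a11 and Clec4d without it (0.58 to 0.91). The summed level of 4 mast cell marker genes was 382 and 420 CPM in the Ctrl libraries versus 61.8 and 50.8 CPM in the WC1 libraries. Of these genes limma called 3 lower (7.71% of all genes were), but 0 without Ctrl 1 and 0 without Ctrl 2, with 3 at an unadjusted p under 0.05 in each case. The granule protease genes Cpa3, Mcpt4 and Cma1 were at 9.85% to 10.8% of the Ctrl mean in WC1. The fourth, Kit, was at 75.8% and was not called (log2 difference -0.39 ± 0.18, limma adjusted p = 0.18). Their part in the lectin differences was not tested. Over 4 libraries in 2 groups, closeness in pattern and a similar difference between the groups cannot be told apart.

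The partners that carry the lectin signal were examined next, from a list of 23 adaptors, kinases, NF-kB pathway members and phosphatases. In limma 5 were called lower, 1 was called higher and 17 were not called, with a median log2 difference of -0.37, compared to 7.71% lower, 10.2% higher and a median of -0.02 over all genes. This list and the other gene lists were chosen with earlier results of these data known. Their counts beside those over all genes are therefore descriptions and not tests of enrichment. Fcer1g, the adaptor of Mincle, MCL and Dectin-2, fell from 391 and 443 CPM in Ctrl to 252 and 184 CPM in WC1, a log2 difference of -0.95 ± 0.17 (limma adjusted p = 0.028). On the TPM scale Fcer1g stood at 1218 ± 117 in Ctrl, above each of the 9 lectins. Tyrobp, the adaptor of MDL-1, was at 778 and 701 CPM in the Ctrl libraries versus 560 and 341 CPM in the WC1 libraries and was not called (-0.76 ± 0.25, limma adjusted p = 0.093).

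Among the kinases, Syk itself was at 382 and 386 CPM in the Ctrl libraries versus 410 and 292 CPM in the WC1 libraries, so the groups overlapped (-0.15 ± 0.17, limma adjusted p = 0.56). On the log2 scale, the Src family kinase genes Fgr and Lyn fell by 1.26 ± 0.09 and 0.37 ± 0.08 (limma adjusted p = 0.0088 and 0.039). Of the Card9 complex, Card9 was at 26.7 and 24.2 CPM in the Ctrl libraries versus 18.9 and 14.6 CPM in the WC1 libraries (-0.58 ± 0.14, limma adjusted p = 0.052). Bcl10 had a log2 difference of -0.28 ± 0.07 (limma adjusted p = 0.053), and neither it nor Card9 was called. Malt1, the protease of the complex, rose from 44.3 and 43.8 CPM to 56.2 and 59.4 CPM (0.38 ± 0.07, limma adjusted p = 0.029). The phosphatase genes Ptpn6 and Inpp5d fell by 0.49 ± 0.11 and 0.65 ± 0.11 (limma adjusted p = 0.045 and 0.027). Without Ctrl 1 or Ctrl 2 limma called 0 of the 23, with 6 and 9 at an unadjusted p under 0.05. Without WC1 1 or WC1 2 it called more of the list lower, and more of all genes lower too, while the number of the list called higher did not change.

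Genes known to be induced through these receptors formed a list of 21 cytokine, chemokine and early response genes, of which 17 were high enough to test. In limma 3 were called lower (7.71% of all genes were) and 14 were not called, with a median log2 difference of -0.38. The chemokine genes Ccl3 and Ccl4 fell by 2.13 ± 0.23 and 1.33 ± 0.28 (limma adjusted p = 0.014 and 0.037), Ccl3 from 21.9 and 19.3 CPM to 5.15 and 2.97 CPM. Il10, an anti-inflammatory cytokine gene, fell by 0.74 ± 0.13 (limma adjusted p = 0.027), from 2.62 and 2.93 CPM to 1.16 and 1.35 CPM. Of the 17 tested, 13 had a log2 difference below 0. Egr1 (0.57 ± 0.22), Cxcl1 (0.49 ± 0.20) and Egr3 (0.41 ± 0.15) were higher in both WC1 libraries. They were not called (limma adjusted p = 0.13, 0.14 and 0.11), nor was Tnf (-0.42 ± 0.12, limma adjusted p = 0.072). Without Ctrl 1 or Ctrl 2 limma lost every call in this list, and nearly all calls over all genes. Without WC1 1 or WC1 2 it called more of the list, mostly as lower, and more of all genes too.

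Of 42 further C-type lectin family genes 32 were tested, 3 were called lower and 3 higher, near the shares of 7.71% and 10.2% over all genes. Their median log2 difference was -0.04, compared to -0.02 over all genes. The scavenger receptor gene Colec12 fell by 0.66 ± 0.07 (limma adjusted p = 0.014). The mannose receptor gene Mrc1 fell by 0.89 ± 0.13 (limma adjusted p = 0.021), from 523 and 509 CPM to 312 and 247 CPM. Clec10a, a macrophage galactose lectin gene, fell by 0.40 ± 0.09 (limma adjusted p = 0.046). Its close relative Mgl2 rose from 17.1 and 21.1 CPM to 34.2 and 51.2 CPM (1.10 ± 0.21, limma adjusted p = 0.033). Clec1a and Clec14a, lectin genes of endothelial cells, rose by 0.76 ± 0.13 and 0.70 ± 0.15 (limma adjusted p = 0.027 and 0.038). Summed over 4 endothelial marker genes, the level was 300 and 342 CPM in the Ctrl libraries versus 659 and 868 CPM in the WC1 libraries, and the part of these cells in that rise was not tested. Without Ctrl 1 or Ctrl 2 limma called 0 of the 32, with 7 and 7 at an unadjusted p under 0.05. Without WC1 1 or WC1 2 it called more of the 32 lower, and more of all genes lower too. Calls higher became more frequent without WC1 1, in the list and over all genes, but not without WC1 2.

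Macrophage genes were lower in WC1 along with the lectins, and their part in the lectin differences was not tested. In limma 8 of 15 macrophage genes were called lower (7.71% of all genes were) and 7 were not called, with a median log2 difference of -0.64. Msr1, a scavenger receptor gene, fell by 1.41 ± 0.19 (limma adjusted p = 0.019), Lyz2 by 1.25 ± 0.25 (0.036), C1qa by 0.85 ± 0.15 (0.028) and Mertk by 0.60 ± 0.10 (0.024). Of 5 fibroblast genes limma also called 3 lower, with a median log2 difference of -0.59 and a summed level of 8827 and 8489 CPM in the Ctrl libraries versus 7687 and 5953 CPM in the WC1 libraries. Without Ctrl 1 or without Ctrl 2 it lost every call among the 5, and nearly all calls over all genes. Without a filter on low values it called 1 of the 5 and 532 of all genes lower. Adgre1, which encodes F4/80, was at 675 and 618 CPM in the Ctrl libraries versus 522 and 353 CPM in the WC1 libraries and was not called (limma adjusted p = 0.10). Cd68 (-0.67 ± 0.23, limma adjusted p = 0.10) and Csf1r (-0.37 ± 0.15, limma adjusted p = 0.14) were not called either. With Ctrl 1 or Ctrl 2 left out limma lost every call among the 15, and nearly all calls over all genes. With WC1 1 or WC1 2 left out it called more of the 15 lower, and more of all genes lower too.

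Of 10 genes of crown-like structure macrophages, 4 were called lower in limma (7.71% of all genes were) and 6 were not called, with a median log2 difference of -0.93. DESeq2 called 8 of them lower, and 1736 of all genes (1088 in limma). In TPM limma called 2 of them and 583 of all genes lower, and without a filter on low values 1 of them and 532 of all genes. Spp1, the osteopontin gene, fell from 557 and 428 CPM to 103 and 53.4 CPM (-2.70 ± 0.33, limma adjusted p = 0.016), and Mmp12, macrophage elastase, fell from 6223 and 5523 CPM to 1969 and 864 CPM (-2.17 ± 0.41, limma adjusted p = 0.032). Cd63 and Cd9, tetraspanin genes, fell by 0.90 ± 0.19 and 0.93 ± 0.21 (limma adjusted p = 0.039 and 0.045). Itgax, which encodes CD11c, and Trem2 were not called (-1.01 ± 0.28 and -0.94 ± 0.24, limma adjusted p = 0.068 and 0.054). With Ctrl 1 or Ctrl 2 left out limma lost every call among the 10, and nearly all calls over all genes. With WC1 1 or WC1 2 left out it called more of the 10 lower, and more of all genes lower too. The summed level of these 10 genes was 22676 and 20155 CPM in the Ctrl libraries versus 12934 and 7380 CPM in the WC1 libraries.

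**Figure D4:**
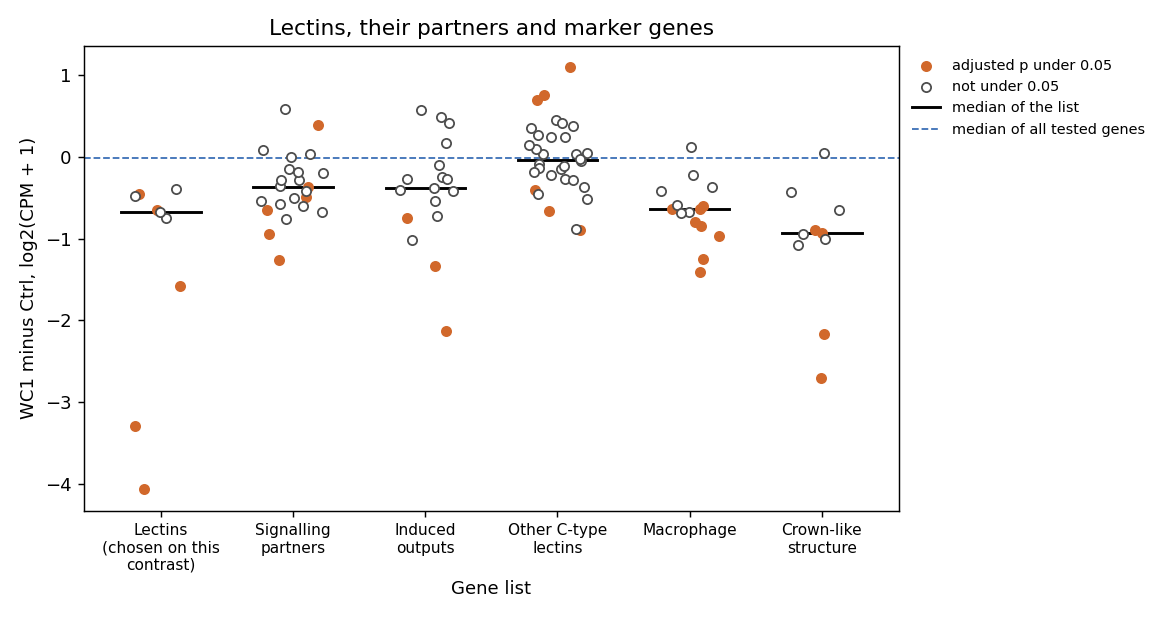
Difference between WC1 and Ctrl in log2(CPM + 1) for each tested gene (points) of the lectins and 5 further lists, with the median of each list (black bar) and of all genes (dashed line, -0.02). Filled points had a limma adjusted p under 0.05. The medians are -0.67, -0.37, -0.38, -0.04, -0.64 and -0.93 from left to right, and Clec4d and Clec4n lie lowest of all at -4.07 and -3.28.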

How the data were processed

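Poly(A) RNA had been made into directional libraries, and per the labels fastp, HISAT2, StringTie and mm10 were used, with no versions given. In the matrix named CPM the authors deposited a signal proportional to reads: columns summed to between 97.6% and 105% of the per-million total, and 100% of values were whole multiples of 1 read within 0.01 read. It is written as CPM here. The authors also deposited TPM, scaled per transcript length. The sources used here do not give the counter or the annotation. Reads recovered per library came to 71658062 and 90965297 for the Ctrl libraries and 61655738 and 61465029 for those of WC1.

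Libraries were grouped by title. Genes reaching 0.5 CPM in 2 or more libraries were compared on log2(CPM + 1), WC1 minus Ctrl, with limma 3.58.1 (R 4.3.3, variance trend, two-sided, Benjamini-Hochberg over 14106 genes, threshold 0.05). The study gives n = 2 per group for RNA sequencing and the labels do not say whether libraries are separate mice; if they are not, p-values measure only the spread between these samples, which may be technical. edgeR 4.0.16 and DESeq2 1.42.0 on recovered reads, other pseudocounts, filters and scalings, TPM, a replicate block and each library left out were alternatives. The tests were run on simulated counts with a fixed spread as a check of the code. That check does not show how reliable calls from these libraries are.

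The 9 lectins and all gene lists were chosen with earlier results of these data known. Named in the text were the lectins, fixed partners and markers, the up to 4 called genes per direction and list with the smallest p and a mean of at least 1 CPM, and the 5 genes nearest to Clec4e, Clec4d and Clec4n. Genes named for their position, for the ends of a list's range, as induced outputs not called or in the closing part were chosen after their values were seen. Positions came from GENCODE M21.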

Additional observations from a re-analysis of the deposited data

How the results depend on the processing

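With 2 libraries per group, the libraries and not the reads limit precision. The 9 lectins were below 0 in 116 of 117 values over 13 alternatives, the exception being Clec5a at 0.0598 without Ctrl 2. The cause of the shifts below was not tested. DESeq2 called 1736 genes lower (1088 in limma), 12 of the signalling list lower (5 in limma), 5 induced outputs lower and 1 higher (3 and 0 in limma, where 10 had an unadjusted p under 0.05) and 5 further C-type lectins lower (3 in limma). In TPM, which moves the median of all genes from -0.02 to 0.10, 583 genes, 3 signalling genes and 4 macrophage genes (8 in CPM) were called lower. Without a filter, 532 genes were lower and 788 higher, and 1 signalling gene and 2 macrophage genes were lower, while 0 further lectins were higher in limma (13 of them in either direction had an unadjusted p under 0.05, edgeR and DESeq2 being run with the filter only). The median lectin difference relative to macrophage genes, -0.00424, was 0.00104 with a pseudocount of 2, -0.0524 in edgeR and -0.0505 in DESeq2, and 0.41 against crown-like structure genes, an alternative chosen after seeing the data.

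Leaving out 1 library assumes that the lone library of its group varies like the other group. Genes called lower ranged from 4 to 2748 and higher from 2 to 2424. Counts ranged from 0 to 17 lower and 0 to 1 higher for signalling, 0 to 8 lower and 0 to 1 higher for induced outputs, 0 to 7 lower and 0 to 6 higher for further lectins and 0 to 13 lower for macrophage genes. The median lectin difference ranged from -0.92 to -0.51, and relative to macrophage genes from -0.0882 to -0.0383. That of Clec5a ranged from -1.02 to 0.0598.

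Equal replicate numbers are not said to pair the libraries, and the numbered differences correlated across genes with r = 0.19 between the groups. With the number as a replicate block, 12 signalling genes were lower and 2 higher, 5 induced outputs were lower and 7 further lectins were lower. Other counts stayed within 1.5 times.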

Other observations

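Other myeloid cells that can carry these lectins were described by short marker lists, with no common direction. Over all genes limma called 7.71% lower and 10.2% higher in WC1. Of 7 monocyte genes, Treml4 and Plac8 had log2 differences of -1.26 ± 0.13 and -0.77 ± 0.17 (limma adjusted p = 0.013 and 0.042), whereas Ccr2, the receptor of the monocyte chemokine Ccl2, rose from 62.9 and 57.4 CPM to 80.7 and 89.1 CPM (0.49 ± 0.09, limma adjusted p = 0.028). The summed level of the monocyte genes was 231 and 259 CPM in the Ctrl libraries versus 236 and 246 CPM in the WC1 libraries. Of 7 dendritic cell genes, Flt3 and Ccr7 fell by 0.59 ± 0.13 and 1.06 ± 0.20 (limma adjusted p = 0.043 and 0.032) and Zbtb46 rose by 0.61 ± 0.13 (0.039). Their sum was between 20.3 and 25.2 CPM in all libraries. Of 9 neutrophil genes 3 were high enough to test, and S100a8 rose by 1.27 ± 0.25 (limma adjusted p = 0.034). Csf3r and Mmp8 were not called (-0.24 ± 0.11 and -0.47 ± 0.23, limma adjusted p = 0.16 and 0.21). S100a9, Cxcr2 and Retnlg, too low to test, were lower in both WC1 libraries, S100a9 at 0.658 and 0.356 CPM in the Ctrl libraries versus 0.0983 and 0.159 CPM in the WC1 libraries. Without Ctrl 1 or Ctrl 2 limma called 0 genes of these 3 lists, with 8 and 6 at an unadjusted p under 0.05. Without a filter on low values limma called 0 of the dendritic cell genes and 0 of the neutrophil genes, with 3 and 4 at an unadjusted p under 0.05, and 1 monocyte gene in each direction. Over all genes, 7.28% were called without the filter. With the filter, edgeR called 2 dendritic cell genes, 1 neutrophil gene and 17.6% of all genes. DESeq2 called 3 dendritic cell genes, 1 neutrophil gene and 27.4% of all genes. The calls in these lists were chosen for naming after their values were seen.

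Mincle transcripts were scarce in both groups. Clec4e had 267 and 377 reads in the Ctrl libraries versus 53 and 36 reads in the WC1 libraries, whereas Clec4d, its neighbour, had 19290 and 18550 reads in the Ctrl libraries versus 1090 and 659 reads in the WC1 libraries.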
